A study of Homo sapiens with 28 samples.

Results

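Short regions of H3K27ac that were present in the marrow of every mouse of the study are described here. H3K27ac is acetylation of lysine 27 on histone H3, read by chromatin immunoprecipitation sequencing (ChIP-seq). Peaks of the 8 mouse H3K27ac libraries were merged into 32836 union regions, and a library held a region when its own peaks covered at least 10% of it. The members are the 5990 regions (18.2% of 32836) that were under 4000 bp and held by all 8 mice, that is by 3 of 3 WT and 5 of 5 DKOITD mice. H3K27ac peaks thus chose the members, so all H3K27ac values below are descriptions and carry no test. H3K27me3, the repressive methylation of the same lysine, played no part in the choice and is tested.

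WT mice carried Ezh2(fl/fl) and Runx1(fl/fl), floxed alleles, with Rag1(+/+) and Flt3(+/+), so with no Cre and no internal tandem duplication. Their marrow was enriched for Kit+ cells on CD117 microbeads. DKOITD mice carried Rag1(Cre/+) and Flt3(ITD/+) along with Ezh2(fl/fl) and Runx1(fl/fl), and their total marrow was taken. All were C57BL/6, the floxed alleles were shared by both groups, and Cre was driven from Rag1, a gene of early lymphoid cells, so deletion is limited to cells that have used it. Ages and sex are not given in the sources used here, and genotype and cell preparation cannot be told apart. Each mouse gave 1 library per mark. H3K27ac libraries held 6515614 to 11458360 fragments and 8825 to 22799 peaks, and every WT library was shallower than every DKOITD library. DKOITD53e and DKOITD83 had the fewest H3K27ac peaks, 8825 and 9112.

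As background, H3K27ac is laid down by the acetyltransferases p300 and CBP at active promoters and enhancers. Promoters of genes that nearly all cells use often keep the mark from one cell type to the next, whereas enhancers change with cell identity. H3K27me3 is written by EZH2 within the Polycomb complex at silenced genes, and both marks cannot sit on the same histone tail residue at once.

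The members were short but were not the shortest regions. Their lengths ran from 341 to 3991 bp, with a median of 1833 bp and quartiles of 1391 and 2425 bp, and together they covered 11.7 Mb. Of the members 7.71% were under 1 kb and 50.8% were 1 to 2 kb. The 25638 other regions under 4000 bp, held by fewer mice, had a median length of 798 bp. The 531 broad regions held in every mouse had a median of 4973 bp. Lengths are those of union regions, which peaks of further mice can lengthen but not shorten, so length and number of holding mice are tied by construction. Regions under 4000 bp held by 1 mouse had a median of 397 bp. With that limit, the share of regions held in every mouse was higher among longer regions up to about 2 kb and then levelled off. It was 0.0481% of regions under 500 bp, 5.90% of those from 500 bp to under 1 kb, 24.2% from 1000 bp, 39.0% from 1500 bp and 45.5% from 2000 bp, in steps of 500 bp. From 2500 bp upward it stayed between 40.7% and 46.4%.

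**Figure D1:**
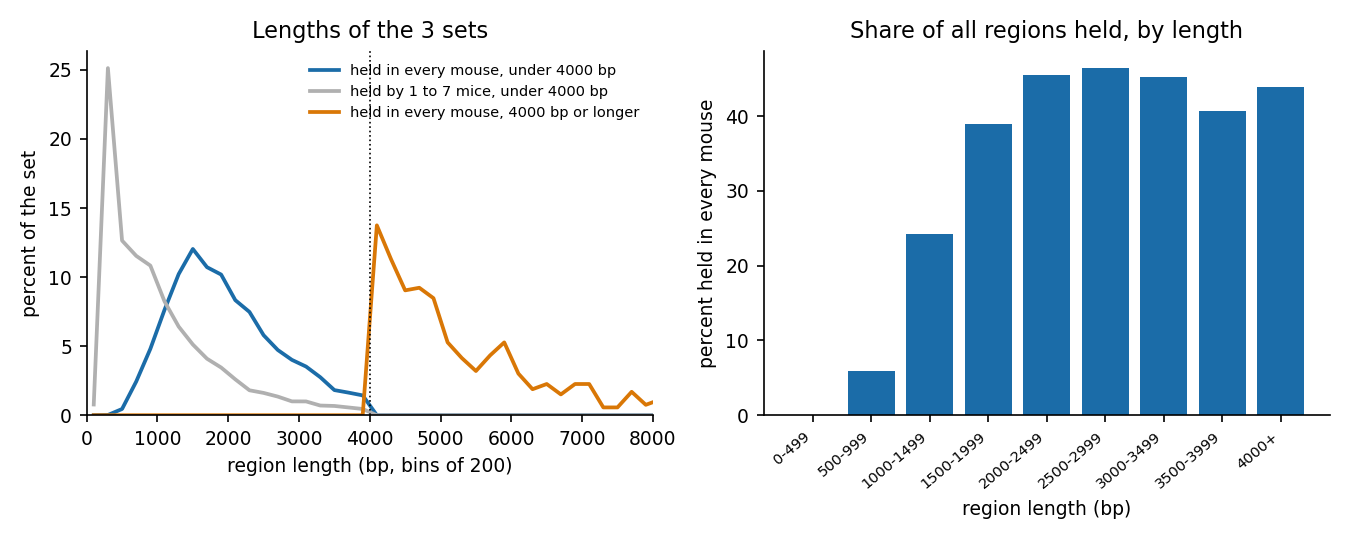
Left, length in bp of the 5990 members, of the 25638 other regions under 4000 bp and of the 531 broad regions held in every mouse, as a percent of each set; the dotted line is the length limit. Right, the percent of all 32836 regions held in every mouse by length in bp, which climbs from 0.0481% under 500 bp to 45.5% from 2000 bp. Lengths are those of union regions, which peaks of further mice can lengthen but not shorten.

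The limit of 4000 bp cuts through a continuous range. Just inside it were the regions of Hjurp, the centromere chaperone, at 3979 bp, of the transcription factor Yy1 at 3978 bp, and of the antiviral zinc finger protein Zc3hav1 at 3973 bp. Just outside were those of Cisd2 at 4000 bp, Kcna3 at 4002 bp and Preb at 4005 bp. The shortest members at a single protein-coding gene were those of Sgsm3 (465 bp), Eid2b (519 bp) and Zfp637 (528 bp). Sgsm3 had 0.380, 0.257 and 0.239 kb covered in the 3 WT mice and 0.200 to 0.455 kb in the 5 DKOITD mice, so the groups overlapped.

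How fully a member was covered differed from mouse to mouse. The median member was covered to 86.9%, 67.1% and 75.4% of its length in WT1, WT2 and WT3. The same median was 60.7% in DKOITD48, 76.6% in DKOITD52, 41.9% in DKOITD53e, 43.7% in DKOITD83 and 79.5% in DKOITD185. DKOITD52 and DKOITD185 lay within the WT range, and DKOITD53e and DKOITD83 lay far below it. Each library had 6011 to 6031 peaks in the members. The rule nearly fixes this number, since it asks each library for a peak in each member. Peaks in members were 68.2% of all H3K27ac peaks in DKOITD53e and 66.1% in DKOITD83, against 26.5% in WT1 and 30.8% in DKOITD185. These shares therefore restate each library's total number of peaks. Of each library's H3K27ac territory, the genome length under its peaks, members held 32.4% to 45.4% in WT and 37.4% to 70.5% in DKOITD mice.

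**Figure D2:**
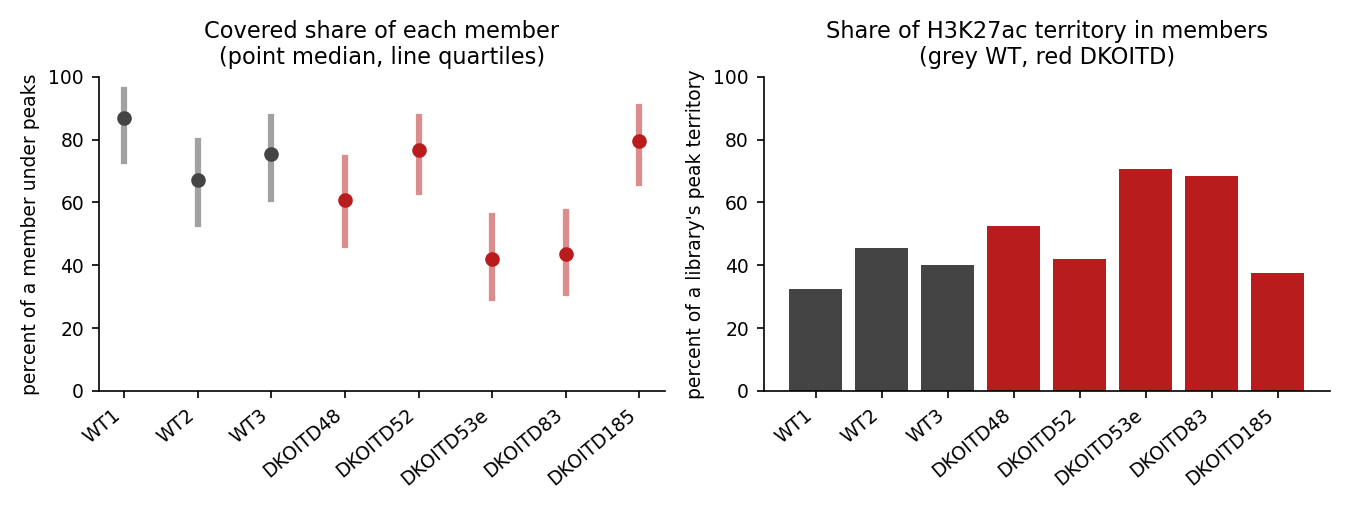
Left, percent of a member's length under H3K27ac peaks in each mouse, with the median of 5990 members as a point and the quartiles as a line. Right, percent of each library's H3K27ac territory that lay in members, WT in grey and DKOITD in red; DKOITD53e at 70.5% and DKOITD83 at 68.4% stand highest.

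The membership rule was most often failed by the same 2 libraries. Among 1224 regions under 4000 bp held by exactly 7 mice, the missing mouse was DKOITD53e for 665 (54.3%), DKOITD83 for 371, WT2 for 134 and WT3 for 39. The count of members was 6656 without DKOITD53e and 6361 without DKOITD83. Without DKOITD48, DKOITD53e and DKOITD83 together it was 9076.

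Most members lay at a gene. Within 1 kb of either end of an annotated gene lay 5429 members (90.6%, Wilson 95% interval 89.9% to 91.3%, counting error only), and 86.4% were at a protein-coding gene. The gene table gives no strand, so a gene's start cannot be told from its end and this share stands in for the promoter share. Broad held regions were at a gene end in 83.6% of cases, other short regions in 25%, and all union regions in 38.4%. The share did not depend on a member's length, at 89.0% to 91.1% in each 500-bp class from 500 bp upward. It was 79.4% when DKOITD48, DKOITD53e and DKOITD83 were left out of the rule. Over all members the median distance from the centre to the nearest protein-coding gene end was 334.5 bp, against 1418 bp for broad held regions and 12919 bp for other short regions.

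Of the members 4001 touched the ends of 1 protein-coding gene, 1120 of 2 genes and 52 of 3 or more. At 780 of the 1120 regions with 2 genes the genes lay side by side, and at 340 they overlapped. The low-coordinate end of a gene was marked alone in 1990 cases and the high-coordinate end in 1942. Only 69 members spanned both ends of 1 gene. In all 6236 of 21887 protein-coding genes (28.5%) had a member at an end, against 7.17% of lncRNA genes, 11.5% of tRNA genes, 8.21% of snoRNA genes and 0.654% of pseudogenes.

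The remaining 561 members had no gene end within 1 kb, 451 of them inside a gene and 110 between genes. They were of like length, with a median of 1855 bp against 1831 bp. Ranked by fold enrichment over background as deposited by the authors, their median score was 67.1 against 74.7 for members at a gene end, where the score is the percentile of a member's best peak within its library, averaged over the 8 mice. The 5 highest scores among them were inside Mllt10 (99.4, chromosome 2, 18063071 to 18066080, mm10), Atad2b (99.3) and Pan3 (99.03), between genes on chromosome 13 (48544662 to 48546894, 98.8) and inside Zfx (98.8). The one on chromosome 13 was 32091 bp from the nearest protein-coding gene end.

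Genes of core cellular machinery carried members far more often than protein-coding genes at large. Gene classes were defined by symbol pattern, so a few members of a class are tissue-restricted relatives. In 15 classes of housekeeping function 681 of 1007 genes (67.6%) had a member, against 28.5% of all protein-coding genes. Class by class the share ran from 59.0% to 86.7%. In 7 classes of restricted function 23 of 1792 genes (1.28%) did, and class by class the share ran from 0% to 12%. Of the 1792, 1107 were olfactory receptors, 0 with a member, and 353 vomeronasal receptors, 1 with a member. The joint share of 1.28% thus mostly reflects these 2 classes. Without DKOITD48, DKOITD53e and DKOITD83 the joint housekeeping and restricted shares were 82.1% and 2.40%, against 36.2% of all protein-coding genes.

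The highest shares were at ribosomal and splicing genes. Of the cytosolic ribosomal protein genes 72 of 83 (86.7%) had a member and 1, Rpl18, a broad held region. Those with no region at all were Rpl10l, Rpl32l and Rpl39l. Splicing factors followed with 47 of 59 (79.7%), the 3 broad exceptions being Sf3b1, Srsf2 and Srsf3, and translation initiation factors with 42 of 56 (75%). Of exosome and ribosome biogenesis genes 28 of 37 had a member and the other 9 another region. Srsf6, an SR protein of splicing, had the highest score among splicing factors, 99.5, with 2.01, 1.81 and 1.85 kb covered in WT and 1.45 to 1.84 kb in DKOITD mice. Rpl17, a protein of the large ribosomal subunit, had 2.12, 1.53 and 1.95 kb in WT. In DKOITD mice it had 0.649, 1.83, 0.699, 0.555 and 1.35 kb in the order DKOITD48, DKOITD52, DKOITD53e, DKOITD83 and DKOITD185. The low values of Rpl17 were in the libraries where members in general were least covered, and DKOITD52 reached the WT range.

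Mitochondrial import genes had members at 19 of 25 (76%), above translation initiation factors, and aminoacyl-tRNA synthetases, also of translation, at 23 of 37 (62.2%). Without DKOITD48, DKOITD53e and DKOITD83 mitochondrial import was the highest class, at 92%. Members also lay at 65 of 105 oxidative phosphorylation genes, 46 of 78 mitochondrial ribosomal protein genes, 32 of 48 proteasome genes and 26 of 37 ubiquitin-conjugating enzyme genes. Uqcrfs1, the iron-sulfur subunit of respiratory complex III, had 1.01, 1.11 and 0.986 kb in WT and 0.605 to 1.20 kb in DKOITD mice. Psmb2, a subunit of the proteasome core, had 1.30, 0.714 and 0.817 kb in WT and 0.469 to 1.28 kb in DKOITD mice. In neither were the groups apart. Chaperones were at 45 of 71 and gave 6 genes to broad regions, among them Hsp90aa1, Hsp90ab1 and Hspa8.

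Nuclear regulators also carried members often. They lay at 49 of 71 genes of chromatin regulators, 60 of 98 of RNA polymerase and general factors and 42 of 67 of replication and division. Zinc finger genes, at 147 of 424 (34.7%), stood near the share of all genes. Histone genes were the class most often broad, with 31 of 75 at a member and 30 of 75 at a broad region. Of 20 genes in common use as references, 15 had a member, Actb had a broad region, and Ywhaz had none within 1 kb.

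**Figure D3:**
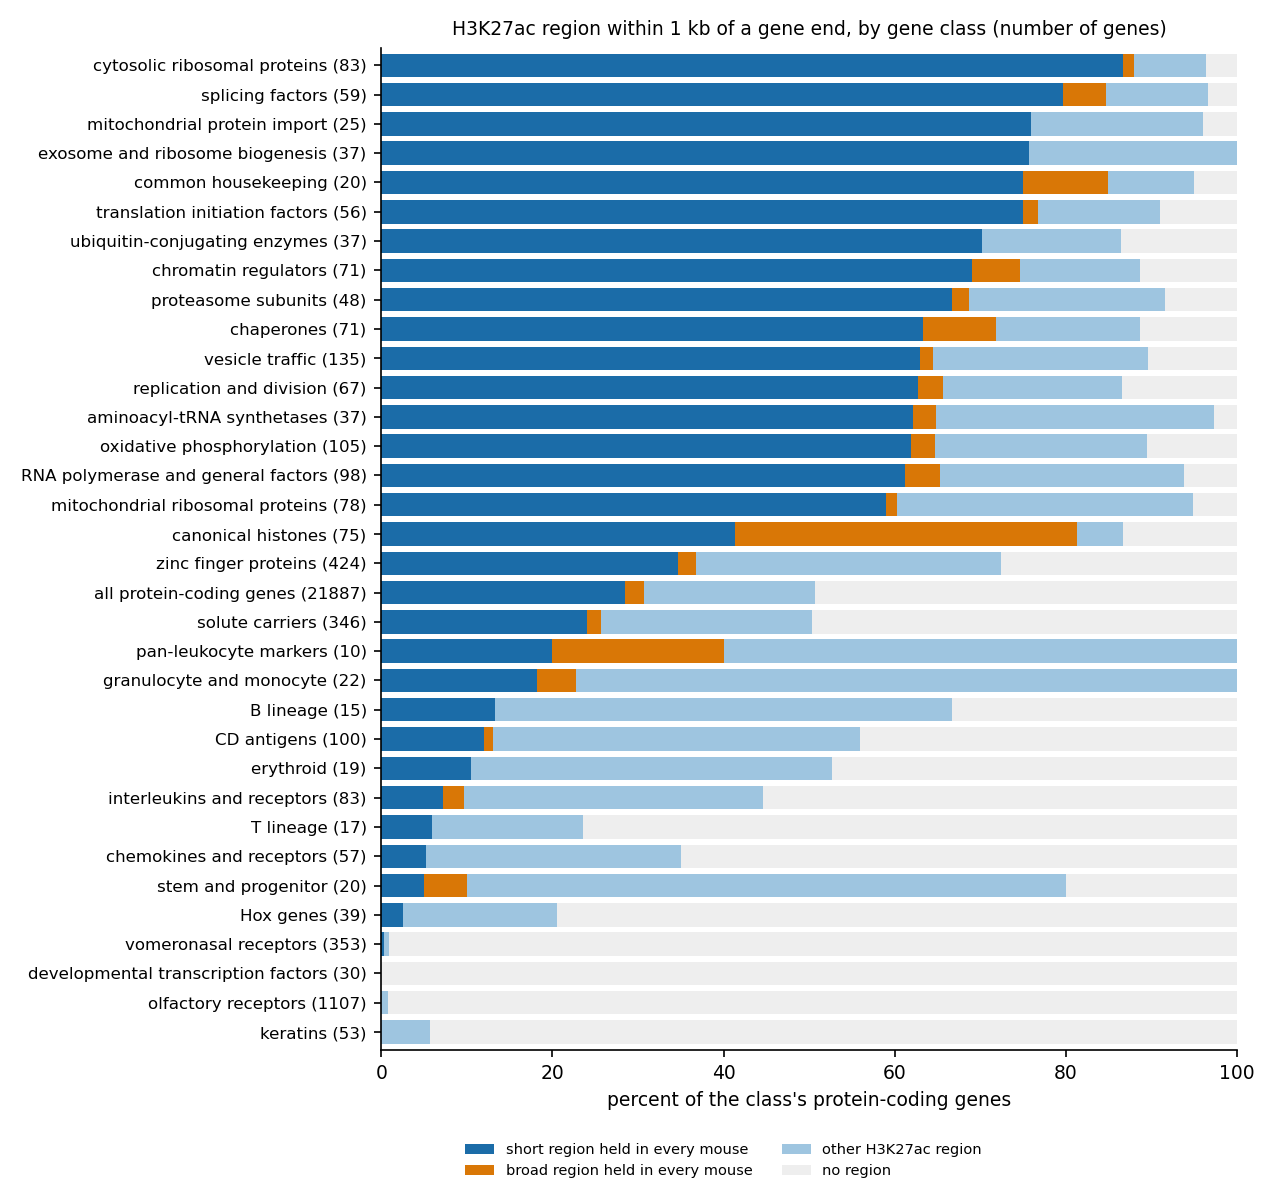
Percent of the protein-coding genes of each class (number of genes in brackets) with a member, a broad held region, another H3K27ac region or none within 1 kb of a gene end, a gene with several kinds being counted under the first of these. Cytosolic ribosomal proteins reach 86.7% and olfactory receptors 0%, against 28.5% of all protein-coding genes.

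Genes restricted to single cell types mostly stayed outside. Members were at 12 of 100 genes with CD-number symbols, 6 of 83 interleukins and receptors, 3 of 57 chemokines and receptors, 1 of 39 Hox genes (Hoxb4), 0 of 53 keratins and 0 of 1107 olfactory receptors. Genes of some blood cell lists had H3K27ac regions without being members, while most genes of other lists had no region. All 10 pan-leukocyte genes and all 22 granulocyte and monocyte genes listed had a region at an end, so markers of the labelled tissue were present, but only 2 and 4 of them were members. The 4 were Cebpa, Cebpb, Csf2ra and Csf3r, and the 2 were Ptprc, the CD45 phosphatase, and Cd37. Of 20 stem and progenitor genes 1, Hhex, was a member. Of 19 erythroid genes the members were Klf1 and the transferrin receptor Tfrc. Members also lay at 2 of 15 B-lineage genes and 1 of 17 T-lineage genes. Dendritic cell genes had the highest share of the lineage lists, 3 of 13 (23.1%), near the 28.5% of all protein-coding genes. None of 9 megakaryocyte, 8 natural killer, 9 mast cell and basophil, 11 stroma and endothelium and 30 developmental transcription factor genes was a member. The last list had no H3K27ac region of any kind, and of the stroma and endothelium list 9 of 11 had none. No region lay at 8 of 9 megakaryocyte, 7 of 8 natural killer, 7 of 9 mast cell and basophil and 13 of 17 T-lineage genes. The same held for 9 of 19 erythroid, 5 of 15 B-lineage, 4 of 20 stem and progenitor and 2 of 13 dendritic cell genes.

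Members at lineage genes ranged from evenly covered to barely covered. Csf2ra, a receptor chain for the growth factor GM-CSF, had 3.34, 2.96 and 2.71 kb covered in WT and 2.84 to 3.72 kb in DKOITD mice, so the groups overlapped. Klf1, an erythroid transcription factor, had 1.61, 0.694 and 0.722 kb in WT and 0.392 to 0.879 kb in DKOITD mice, a low member with a score of 35.6. Bst2, an interferon-inducible membrane protein of plasmacytoid dendritic cells, had 1.27, 0.903 and 0.728 kb in WT and 2.08, 2.35, 1.11, 1.10 and 2.23 kb in DKOITD mice. Only WT1 overlapped the DKOITD range for Bst2, but by rank of fold enrichment among the regions held in every mouse (0 to 100) its mean was 67.8 in WT and 47.6 in DKOITD mice, with overlap. Cd3d, a chain of the T-cell receptor complex, had 1.82, 1.72 and 1.49 kb in WT and 0.911 to 1.42 kb in DKOITD mice, with no overlap. Members in general were less covered in DKOITD mice, with a median difference of -14.8 percentage points of their length. By rank of fold enrichment Cd3d overlapped, with a mean of 53.3 in WT and 58.4 in DKOITD mice, so the direction turned. Whether cell numbers or the mark per cell differ cannot be told apart in bulk marrow.

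High scores were found at genes of general regulators. By score the first 5 among the 4001 members at 1 protein-coding gene were the regions of Ppp2ca, the catalytic subunit of protein phosphatase 2A (99.9), the kinase Dyrk1a (99.9), the splicing factor Sfpq (99.8), the RNA-binding protein Hnrnpa0 (99.8) and the splicing kinase Clk1 (99.8). Ppp2ca (chromosome 11, 52098824 to 52122749) had fold enrichment of 28.6, 19.3 and 19.9 in WT and of 17.5 to 29.8 in DKOITD mice. Its covered length was 2.47, 2.42 and 2.66 kb in WT and 1.41 to 2.52 kb in DKOITD mice. The weakest at a single gene were Galnt2, a glycosyltransferase (17.2), Hacd3 (22.6) and Ttbk2 (23.1). Members outranked the other short regions in every library, but the same peaks chose the members. Weak peaks are lost first, so a rule that asks for a peak in every mouse favours strong peaks. Rank and membership are thus tied by construction. The median percentile of a member's best peak was 61.7 to 85.2, against 17.2 to 35.3 for other short regions and 63.0 to 83.5 for broad held regions.

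Below all of these lay 4 members with fold enrichment of 1.30 to 2.71 and scores under 0.1. They were on chromosome 9 (35305242 to 35305582), chromosome 2 (98662248 to 98665125 and 98666257 to 98667329) and chromosome 14 (19415733 to 19419648). Their mean fragment coverage was 228.3 to 478.5, against a median of 14.6 to 25.1 over the members of a library. H3K27me3 peaks covered 46.5% to 100% of each in all 8 mice, so they were called in both marks throughout. The part of high coverage in these calls was not tested.

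Ezh2, the histone methyltransferase gene floxed in all these mice, had a member at its high-coordinate end (chromosome 6, 47593699 to 47596099, 2401 bp, gene 47530274 to 47595270). It was covered over 2.306, 2.005 and 2.123 kb in WT and 1.82, 2.28, 1.52, 1.66 and 1.97 kb in DKOITD mice, which overlap. The region at one end does not show whether floxed exons were deleted. Runx1 had a region of 6704 bp held by 7 mice and Flt3 one of 2776 bp held by 7, so neither was a member, and Rag1 had none.

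Members were compared between the groups by rank. In each library all 6521 regions held in every mouse were ranked from 0 to 100 by fold enrichment, which takes out differences in overall enrichment between libraries. The 3 WT and 5 DKOITD ranks did not overlap for 966 of the 5990 members with DKOITD lower (16.1%) and for 891 with DKOITD higher (14.9%). Over all 6521 regions the shares were 15.8% and 14.8%, but 5990 of these are the members themselves, so the shares could hardly differ. In the 531 broad held regions they were 12.2% lower and 13.9% higher. Most members overlapped. Peaks of WT mice had the input of WT1 as their control and peaks of DKOITD mice that of DKOITD48, so the input, depth, cell preparation and genotype cannot be told apart here.

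Gaps between the groups are given for a few members picked after the values were seen. The widest on the higher side were at Pmaip1 and Homer1. Pmaip1, the pro-apoptotic protein Noxa, ranked at 13.4, 13.8 and 13.5 in WT and at 89.5, 77.6, 86.1, 89.1 and 78.3 in DKOITD mice. Its fold enrichment was 4.64 to 5.46 in WT and 8.68 to 13.1 in DKOITD mice. Homer1, a synaptic scaffold protein, ranked at 8.503 to 14.407 in WT and 75.8 to 89.6 in DKOITD mice. On the lower side the widest gap was at Rmnd5b, a subunit of a ubiquitin ligase complex, which ranked at 62.6 to 74.5 in WT and 4.90 to 17.9 in DKOITD mice, followed by Phactr4, Rnf130, Brip1 and Aurkb. Aurkb, the mitotic kinase Aurora B, ranked at 83.7, 73.3 and 80.0 in WT and 17.996, 24.3, 0.851, 29.9 and 10.6 in DKOITD mice. Brip1, a helicase of DNA repair, ranked at 71.7 to 80.8 and 5.64 to 28.2. Ezh2 itself ranked at 91.9, 95.2 and 94.0 in WT and 72.6, 78.7, 61.1, 80.2 and 83.1 in DKOITD mice, again with no overlap.

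Several machinery classes, and zinc finger genes, leaned to lower ranks in DKOITD mice. Of 48 members at mitochondrial ribosomal protein genes 15 were lower and 3 higher without overlap, against 15.8% and 14.8% of all regions held in every mouse. Of 73 at cytosolic ribosomal protein genes 16 were lower and 4 higher, and of 66 at oxidative phosphorylation genes 13 and 3. Splicing factors had 10 lower and 3 higher of 49. Zinc finger genes, outside the housekeeping classes, had 33 lower and 16 higher of 143. Proteasome genes were even, with 8 and 8 of 32, and translation initiation factors leaned the other way, with 5 lower and 8 higher of 44. Without DKOITD48, DKOITD53e and DKOITD83 the shares over all regions were 24.97% lower and 24.1% higher. The cytosolic ribosomal class then had 22 lower and 16 higher of 73 (30.1% and 21.9%), near that background. The mitochondrial ribosomal class had 16 and 5 of 48, oxidative phosphorylation 17 and 10 of 66, splicing factors 16 and 7 of 49, and zinc finger genes 49 and 34 of 143.

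The X chromosome held few members for its genes, but not for its H3K27ac regions. It held 139 members, 14.4 for each 100 of its protein-coding genes, against 28.3 on the autosomes together and 20.2 to 35.2 on single autosomes. Of its 595 H3K27ac regions 23.4% were members, against 15.0% to 20.3% on single autosomes. Of the 139, 28 (20.1%) ranked higher and 6 (4.32%) lower in DKOITD mice without overlap, against 14.8% and 15.8% of all regions held in every mouse. On chromosomes 15 and 16 the higher share was 19.2% and 19.4%, and on the autosomes the lower share was 12.8% or more. Without DKOITD48, DKOITD53e and DKOITD83 the X had 43 higher and 22 lower of 139. The median rank of X-linked members was 38.3, 35.4 and 32.5 in WT1, WT2 and WT3. It was 46.9, 46.8, 46.1, 52.8 and 43.5 in DKOITD48, DKOITD52, DKOITD53e, DKOITD83 and DKOITD185. Other members had medians of 49.6 to 50.9 in all 8 mice.

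Markers of sex followed a different line between the mice. H3K27ac peaks lay within 1 kb of an end of Xist, the RNA that silences an X chromosome in female cells, in the 3 WT mice (2696, 1888 and 2813 bp) and in DKOITD83 (670 bp), and in none of the other 4. Those other 4 mice had peaks at 3 or 4 of the Y genes Ddx3y, Eif2s3y, Kdm5d and Uty, and the first 4 mice at 0. Peaks at Xist and at Y genes were thus unevenly spread over the groups, and the part of sex in any difference between WT and DKOITD mice was not tested. Outside the X and Y chromosomes 959 of 5850 members (16.4%) ranked lower and 863 (14.8%) higher without overlap. Over all regions held in every mouse the shares were 15.8% and 14.8%.

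**Figure D4:**
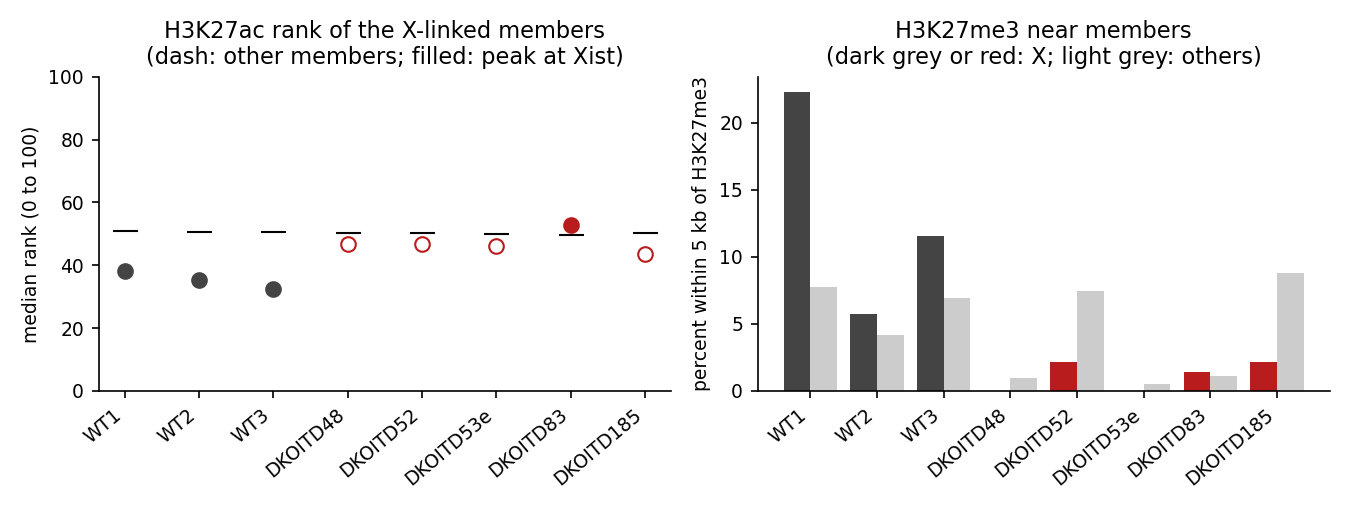
Left, median rank (0 to 100, by fold enrichment) of the 139 X-linked members in each mouse, WT in grey and DKOITD in red, filled where a peak lay at Xist, with the median of the other members as a dash. Right, percent of X-linked members (dark grey or red) and of other members (light grey) with H3K27me3 within 5 kb; WT1 reaches 22.3% on the X and DKOITD mice 0% to 2.16%.

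H3K27me3 was rare on the members. Any H3K27me3 peak touched 344 of 5990 members (5.74%) in at least 1 mouse, against 5.92% of the other short regions. In single mice it touched 187 (3.12%), 110 (1.84%) and 187 (3.12%) members in WT1, WT2 and WT3. It touched 22 (0.367%) in DKOITD48, 180 (3.01%) in DKOITD52, 10 (0.167%) in DKOITD53e, 22 (0.367%) in DKOITD83 and 169 (2.82%) in DKOITD185. DKOITD52 and DKOITD185 lay within the WT range, and the 3 low mice had H3K27me3 territories of only 3.17 to 5.24 Mb, against 13.8 to 40.5 Mb in the other 5.

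Over the regions themselves, members carried H3K27me3 slightly less often than other short regions, in 8 of 8 mice. Within a mouse the share of members minus that of other short regions was -0.716 percentage points ± 0.198 (SD of the paired differences, n = 8 mice, exact sign-flip permutation test, two-sided, p = 0.00781, the smallest that 8 mice allow, Benjamini-Hochberg adjusted over 4 tests p = 0.0313). The means over mice were 1.85% of members and 2.57% of other short regions, although members were the longer of the 2 sets. By the rule members have H3K27ac in every mouse, whereas 12460 of the other short regions were held by only 1 mouse. Both marks cannot sit on the same residue at once, and the part of the H3K27ac rule in this difference was not tested. When H3K27me3 peaks were limited to a −log10 q of 5 or more, this difference was -0.158 points and the call was lost (exact permutation p = 0.219). Against broad held regions, at 1.81%, the difference of 0.0384 points was within the spread between mice (SD 0.523 points, exact permutation p = 0.836, adjusted p = 0.836). Within 5 kb the members' share was above that of other short regions in WT1 (8.05% against 7.80%), WT3 (7.03% against 6.96%) and DKOITD185 (8.63% against 8.45%). It was below in WT2, DKOITD48, DKOITD52, DKOITD53e and DKOITD83. That comparison within 5 kb was not tested.

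Between genotypes no difference passed. H3K27me3 lay on 2.69% ± 0.742 (SD, n = 3) of members in WT and 1.35% ± 1.43 (SD, n = 5) in DKOITD mice (exact permutation test, two-sided, p = 0.179, adjusted p = 0.357, smallest possible p 0.0357). Within 5 kb it lay near 6.43% ± 1.98 (SD, n = 3) and 3.68% ± 3.94 (SD, n = 5) of members (exact permutation p = 0.321, adjusted p = 0.429). The values near members were 8.05%, 4.22% and 7.03% in WT mice. They were 0.902%, 7.30%, 0.484%, 1.10% and 8.63% in DKOITD mice. Without DKOITD48, DKOITD53e and DKOITD83 both differences turned positive, to 0.220 and 1.53 points, with 2 mice left in that group.

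**Figure D5:**
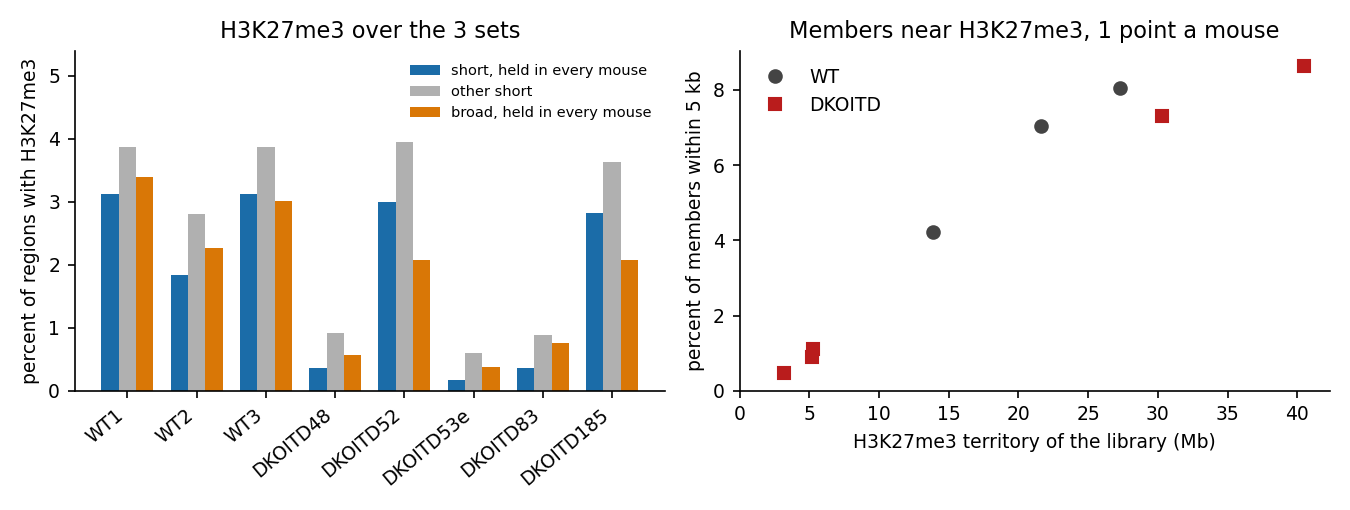
Left, percent of members, of other short regions and of broad held regions touched by H3K27me3 peaks in each mouse; members lie below other short regions in 8 of 8 mice. Right, percent of members with H3K27me3 within 5 kb against the library's H3K27me3 territory in Mb, 1 point per mouse; the 3 DKOITD mice under 5.24 Mb lie between 0.484% and 1.10%.

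On the X the WT and DKOITD values did not overlap. H3K27me3 lay within 5 kb of 22.3%, 5.76% and 11.5% of the 139 X-linked members in WT1, WT2 and WT3, and of 0%, 2.16%, 0%, 1.44% and 2.16% in the DKOITD mice. DKOITD52 and DKOITD185 had it near 7.42% and 8.78% of the other members, so their low values on the X were not shared by members elsewhere. The X held 5.35% to 11.6% of all H3K27me3 peaks in WT mice and 0.687% to 2.72% in DKOITD mice, DKOITD83 being the highest of the latter. The X was singled out after its values were seen and carries no test. Off the X and Y, the difference in share on members was -1.22 points (exact permutation p = 0.25).

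Member by member, limma was fitted to H3K27me3 covered length within 5 kb over the 2776 H3K27ac regions with the mark in at least 2 libraries, 524 of them members. It called 0 of the 524 at an adjusted p under 0.05, as it called 0% of all regions in each direction. At an unadjusted p under 0.05 there were 78 members lower and 1 higher in DKOITD mice, against 438 and 13 of all 2776. The smallest limma adjusted p was 0.0677, shared by 3 members, of which 2 are given after their values were seen. One lay on chromosome X at 12078623, with 6.90 kb ± 2.31 (SD, n = 3) in WT and 0 in 5 DKOITD mice. One was at Map4k4, a stress-pathway kinase, with 2.998 kb ± 0.695 (SD, n = 3) and 0. The count of called members was 62 of 511 without WT2, against 321 of all 2712 regions. With log2 of the covered kb plus 0.1 it was 17 of 524, against 96 of all 2776.

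A handful of members carried both marks in most mice. Among 5990 members 8 had H3K27me3 in all 8 mice and 4 in 7, 5 of the 8 having no gene end within 1 kb. The 8 include the 4 members of high coverage and low fold enrichment described above, on chromosomes 2, 9 and 14. None of those 4 had a gene end within 1 kb. Chd7, a chromatin remodeller (chromosome 4, 8689812 to 8692256), had H3K27ac over 2.30, 1.96 and 2.31 kb in WT and 1.98 to 2.34 kb in DKOITD mice. H3K27me3 covered 2.41, 0.913 and 0.520 kb of it in WT and 0.488 to 2.44 kb in DKOITD mice. Dusp8, a phosphatase of stress kinases, had H3K27me3 over its whole 0.964 kb in all 8 mice, with H3K27ac over 0.469 to 0.775 kb. Irf2bpl, Map7 and Agpat3 had H3K27me3 in 7 of 8 mice. At Irf2bpl H3K27me3 covered 0.894, 1.43 and 1.78 kb in WT and 0 to 0.684 kb in DKOITD mice, with no overlap, while H3K27ac covered 0.620 to 0.908 kb and 0.647 to 1.78 kb. Whether both marks lay in the same cells was not tested, since marrow holds many cell types.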

How the data were processed

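Peak lists of H3K27ac and H3K27me3 from 8 mice were analysed, and the human lines of the series were not analysed here. Per the submitters' processing notes, reads were processed with Bowtie2 2.2.5 and MACS2 2.0.10 on mm10. Broad peaks came from paired fragments, library by library, per the file headers, with the input of WT1 as the control for WT and that of DKOITD48 for DKOITD. The deposited fold enrichment is a ratio of ChIP signal to local background, the deposited pileup is the fragment coverage (signal) of a peak, and −log10 q is the authors' significance per peak. They are the authors' values and served to rank or filter peaks within a library. Weak peaks are lost first at low depth or enrichment, so a missing peak does not show a missing mark. The Drosophila chromatin spike was not used, so no absolute level is given.

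Peaks were merged, union regions built and genes placed on a RefSeq table (GRCm38.p6, no strand, 21887 protein-coding genes) with windows of 1 kb at both gene ends. A region at several genes counts for each. Members and gene lists were chosen with earlier results of these data known. Genes were named by a rule: the extremes of score and length, 2 per class by score, the members with H3K27me3 in most mice, those with no gene end and the engineered genes; others are said to be chosen after their values were seen. H3K27me3 shares over mice were tested by exact permutation (scipy 1.17.1), adjusted over 4 tests, and H3K27me3 covered length by limma 3.58.1 (R 4.3.3) across 2776 regions. limma was first run on simulated, normally distributed values. Covered lengths here include values of 0, so that run does not show how limma behaves on them. P-values measure the spread between these mice. Alternatives were the holding rule, length limit, stricter peaks, equal peak numbers (8825 for H3K27ac and 1891 for H3K27me3), each mouse left out and, chosen after seeing the data, leaving out 3 DKOITD mice or the X and Y chromosomes.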

Additional observations from a re-analysis of the deposited data

Results flagged for a closer look

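Of 110 sets of values looked at for a mouse far from the rest, 3 had one, and chance alone marks about 1 in 20. Among the 5 DKOITD mice DKOITD83 stood apart in the share of H3K27me3 peaks on the X chromosome, 2.72% against 0.687% to 1.16% in the others, and it was also the DKOITD mouse with an H3K27ac peak at Xist. At Hoxb4, DKOITD53e had 0.354 kb of H3K27ac covered, far under the 1.15 to 1.42 kb of the other DKOITD mice, and its library had the fewest peaks. At Itm2c, a membrane protein gene whose DKOITD ranks were otherwise 72.9 to 74.5, DKOITD48 ranked at 63.8.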

How the results depend on the processing

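No paired analysis was possible because WT and DKOITD mice carry different numbers in the labels. The count of 5990 members was 1341 when 50% of a region had to be covered, 3304 with H3K27ac peaks of −log10 q at least 5, and 9076 without DKOITD48, DKOITD53e and DKOITD83; leaving out single mice gave 6005 to 6656. The gene-end share of 90.6% was 88.8% with windows of 500 bp, 92.7% with 2500 bp, 86.4% for protein-coding genes and 79.4% without the 3 mice, which also gave 82.1% and 2.40% for housekeeping and restricted classes and 1498 lower and 1459 higher non-overlapping ranks. The genotype difference in H3K27me3 on members (-1.35 points) was 0.0412 with the stricter H3K27me3 peaks, 0.220 without the 3 mice and -0.195 (exact permutation p = 0.0357) at equal peak numbers; within 5 kb (-2.75 points) it was 0.196 and 1.53 for the first 2. Leaving out single mice gave -1.78 to -1.05 and -3.99 to -1.94 points. The difference from other short regions was -0.158 with the stricter peaks and -0.845 without the 3 mice, where 5 mice allow no p under 0.0625, and -0.757 to -0.680 without single mice. That from broad regions changed sign to -0.0842 with stricter peaks (exact permutation p = 0.0391) and -0.168 at equal numbers (p = 0.0234, exact), and ran from -0.0895 to 0.104 without single mice, being -0.0895 without DKOITD52 and -0.0632 without DKOITD185. limma called 1 of 855 members with the mark in at least 1 library, against 3 of all 4351 regions. On the log2 scale it called 17 of 524, against 96 of 2776. Without single mice it called 0 to 62 members, 62 of 511 being without WT2, against 321 of 2712 regions. The cause of these changes was not tested. Libraries with few peaks, above all DKOITD53e and DKOITD83, limit which regions can be members.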
